A study of Mus musculus with 6 samples.

Results

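Knock-out clone 2 is 1 of 2 knock-out lines of 4T1 cells for Mki67, which encodes the proliferation antigen Ki-67. Its 2 libraries were compared with the 2 libraries of wild-type (WT) 4T1 cells, so the comparison used 4 of the 6 libraries of the series, chosen by their titles. The other 2 libraries came from knock-out clone 1 and were used to find changes present in clone 2 and not in clone 1. 4T1 is an established carcinoma line from the mammary epithelium of a BALB/c mouse. The WT cells carry the intact gene and both clones are homozygous knock-outs (Mki67-/-), and all cells were grown in the same medium. Total RNA depleted of ribosomal RNA was sequenced with strand information. Each clone is 1 line grown from edited cells, so the loss of Ki-67 and other differences between clone 2 and the WT population cannot be told apart from these 2 groups. The labels do not say whether replicates are separate cultures, and the p-values therefore reflect a spread between libraries that could be technical.

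Ki-67 is a large nuclear protein made in cycling cells. It organises the layer that coats mitotic chromosomes and is widely used to mark proliferating tumour cells. Several of the larger differences between clone 2 and clone 1 were in genes of secreted inflammatory proteins. Interleukin-1 alpha is an alarm cytokine that activates the NF-kB transcription factors, which in turn drive genes of chemokines, colony-stimulating factors and their own inhibitors. In 4T1 tumours, G-CSF (Csf3) and the chemokines Cxcl1 and Cxcl5 are known for expanding and attracting neutrophils. Matrix metalloproteinases degrade the extracellular matrix, and several of their genes are classical targets of AP-1, the family of Fos and Jun dimers.

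Between 10428970 and 22658499 reads per library were assigned to genes, with the shallowest library in WT. Of 26172 genes with a read, 13755 had enough reads to be tested. The top 10 genes took 28.4% and 24.8% of all gene reads in the WT libraries, against 17.7% and 15% in those of clone 2. Levels below are CPM values, read counts scaled to a common library size and corrected for composition, and are given for replicate 1 and then replicate 2. Log2 fold changes are given ± SE and come from edgeR's quasi-likelihood test over all 6 libraries, with p-values adjusted by the Benjamini-Hochberg method over all tested genes. A gene is said to have risen or fallen where this p was under 0.05. The label of epithelium was checked with 9 epithelial markers: all were tested, and their summed level was 4101 and 4724 CPM in WT and 6422 and 6000.1 CPM in clone 2. Most markers of other cells were at or near 0. Of 18 immune markers 4 had enough reads to be tested and 14 stayed under 1 CPM in every library, and the T-cell gene Cd3e and the macrophage gene Adgre1 had no read in any library. Of 10 fibroblast markers only Pdgfra was tested, and of 8 endothelial markers only Egfl7.

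The targeted gene fell in both clones. Mki67 stood at 736 and 647 CPM in WT, 85.8 and 102 CPM in clone 1 and 39.9 and 52.8 CPM in clone 2. Clone 2 was below WT by a log2 fold change of -3.90 ± 0.16 (adjusted p = 1.52e-09) and below clone 1 by -1.02 ± 0.15 (adjusted p = 5.03e-04). The 3 groups did not overlap, and some Mki67 RNA was left in both clones. In such bulk libraries, fewer cells with a transcript and less of it per cell cannot be told apart.

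Against WT, 3463 genes were higher in clone 2 (25.2% of those tested) and 3840 were lower (27.9%), together 53.1%. The fold change exceeded 2 for 1081 of the higher and 1772 of the lower genes. Clone 1 differed from the same WT libraries at 3365 genes higher (24.5%) and 3574 lower (26.0%), together 50.4%, and the direct comparison of clone 2 with clone 1 called 1550 genes higher (11.3%) and 1478 lower (10.7%), together 22.0%. The clones share their WT libraries, so a gene was counted as changed in clone 2 and not in clone 1 only where it was called in clone 2 against WT, not called in clone 1 against WT, and called between the clones in the same direction. By that rule 454 genes were higher in clone 2 (3.30%) and 445 lower (3.24%). They made up 13.1% of the higher and 11.6% of the lower genes of clone 2 against WT. Most were modest: the median size of the log2 change was 0.63 for the higher and 0.75 for the lower genes, and 68 and 127 passed 2-fold. In clone 1 the median log2 change from WT of these higher genes was 0.055 (quartiles -0.091 and 0.19). For the lower genes it was -0.064 (quartiles -0.23 and 0.074), so some leaned the same way in clone 1 without a call. A further 38 genes were above WT in clone 2 and below it in clone 1 (0.276%), 31 did the opposite (0.225%), and 357 higher (2.60%) and 272 lower (1.98%) genes changed in the same direction in both clones with the larger change in clone 2. The change was larger in clone 1 for 176 higher (1.28%) and 220 lower genes (1.60%), and 1912 higher (13.9%) and 2229 lower (16.2%) were shared without a call between the clones. Another 526 higher (3.82%) and 643 lower genes (4.67%) were called in clone 2 only but not between the clones, and are not counted as different. A single library carried weight here. Without clone 2 replicate 1 the genes changed in clone 2 and not in clone 1 came to 93 higher and 71 lower, without clone 1 replicate 1 to 181 and 264, without clone 1 replicate 2 to 184 and 182, and without clone 2 replicate 2 the higher genes to 275. Without WT replicate 2 the higher genes came to 705. The direct comparison of the clones moved likewise, to 341 higher and 284 lower without clone 2 replicate 1, 852 and 859 without clone 2 replicate 2, 543 and 665 without clone 1 replicate 1, and 477 and 508 without clone 1 replicate 2. Its higher genes came to 2343 and 2365 without WT replicate 1 and 2.

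**Figure D1:**
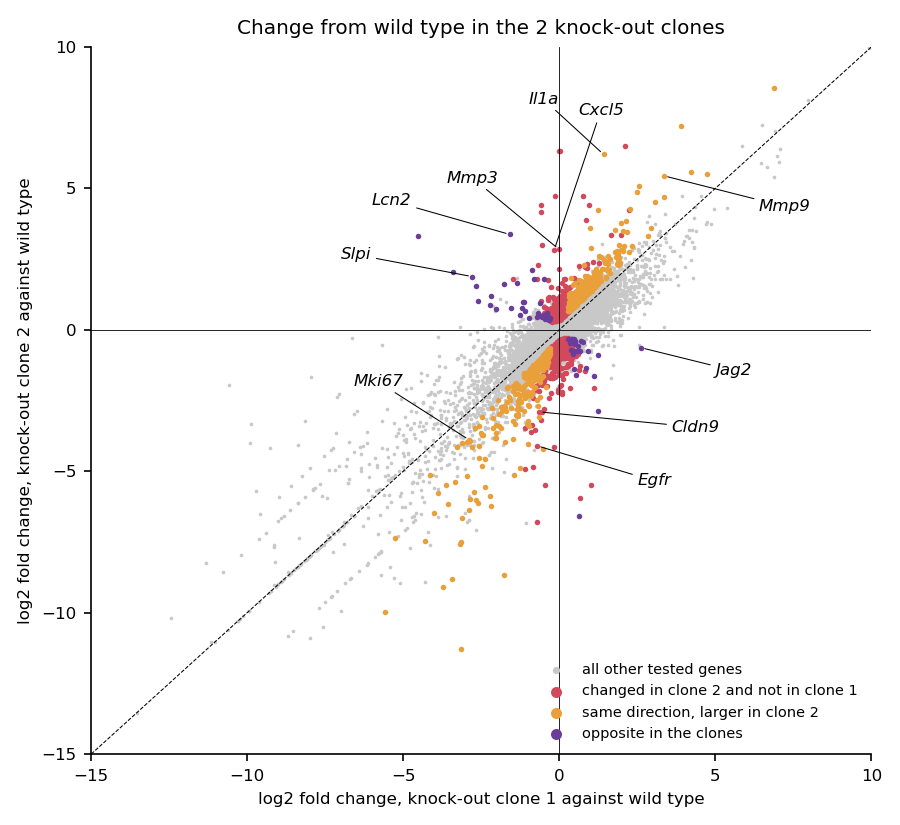
Each point is 1 of 13755 tested genes, placed by its log2 fold change against wild type in knock-out clone 1 (x axis) and knock-out clone 2 (y axis), with equal change in both clones on the dashed line. Red marks the 454 higher and 445 lower genes changed in clone 2 and not in clone 1, orange the larger changes of clone 2 in the same direction, and purple the genes that moved in opposite directions. Most large changes lie along the dashed line, and Il1a, Lcn2, Mmp3 and Cxcl5 lie above it.

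Promoter sequences are shown for 4 genes of inflammation and matrix breakdown that were higher in clone 2 than in clone 1 and that hold one of a pair of textbook motifs. They run 5′ to 3′ in the direction of the gene, from 250 bases before to 50 bases after the start site, and come from RefSeq on GRCm38.p6. Capitals mark TGANTCA, a wide form of the AP-1 motif that reads the same on both strands, or an NF-kB motif searched on both strands. TGANTCA allows any middle base, where the textbook AP-1 site has C or G, as the AP-1 matches printed below do. The NF-kB motif is GGGA, any base, TT, any base and CC.
Mmp3, chr9:7445572-7445871, plus strand, AP-1 motif: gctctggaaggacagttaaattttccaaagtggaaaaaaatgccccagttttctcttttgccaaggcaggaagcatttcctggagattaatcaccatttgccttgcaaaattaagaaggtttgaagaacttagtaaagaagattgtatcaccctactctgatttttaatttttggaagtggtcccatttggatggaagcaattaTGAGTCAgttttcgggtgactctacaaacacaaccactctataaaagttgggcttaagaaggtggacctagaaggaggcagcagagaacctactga
Mmp10, chr9:7502092-7502391, plus strand, AP-1 motif: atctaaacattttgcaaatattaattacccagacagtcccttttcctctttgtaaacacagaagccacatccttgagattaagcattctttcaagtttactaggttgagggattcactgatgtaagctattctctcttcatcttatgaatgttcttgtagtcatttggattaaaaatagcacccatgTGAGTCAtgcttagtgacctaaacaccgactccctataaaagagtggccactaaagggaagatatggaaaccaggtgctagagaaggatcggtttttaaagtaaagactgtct
Il1a, chr2:129309923-129310222, minus strand, AP-1 motif: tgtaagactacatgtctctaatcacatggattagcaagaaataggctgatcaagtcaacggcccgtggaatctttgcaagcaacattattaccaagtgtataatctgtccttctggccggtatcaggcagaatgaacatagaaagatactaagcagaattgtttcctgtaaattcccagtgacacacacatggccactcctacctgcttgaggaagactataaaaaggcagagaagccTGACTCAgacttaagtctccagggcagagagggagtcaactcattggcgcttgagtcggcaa
Cxcl1, chr5:90890995-90891294, plus strand, NF-kB motif: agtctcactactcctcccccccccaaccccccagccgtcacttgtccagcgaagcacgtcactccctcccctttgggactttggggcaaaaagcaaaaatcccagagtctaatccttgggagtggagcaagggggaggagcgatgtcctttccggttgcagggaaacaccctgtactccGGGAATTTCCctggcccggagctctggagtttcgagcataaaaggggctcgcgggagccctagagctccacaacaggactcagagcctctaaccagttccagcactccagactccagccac

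The first base of the motif lay 46 bases before the start in Mmp3, 63 in Mmp10, 12 in Il1a and 71 in Cxcl1. The search covered 23 genes: the 12 largest rises among genes changed in clone 2 and not in clone 1, the 5 named as above WT in clone 2 and below it in clone 1, and the 6 named as raised in both clones and further in clone 2. Of these, 18 had a promoter in the table. TGANTCA was in 4 of them, and the NF-kB motif in 2, Cxcl1 and Neurl3. The fourth gene with TGANTCA was Ikbke, whose match TGAATCA is not the textbook AP-1 site. The shares of TGANTCA given here count every middle base. Both motifs are short and common: 7.81% of all 32851 promoter windows held TGANTCA and 1.2% held the NF-kB motif. Counted per gene, by a motif in any of its windows, the shares were 6.24% and 1.5% of the 9541 tested genes with a promoter. The shares of sets of genes below are also per gene. Among the genes changed in clone 2 and not in clone 1 that had a promoter in the table, the shares were 6.16% and 0.587% for the higher and 3.74% and 1.25% for the lower genes. Among genes raised in both clones and further in clone 2 they were 11.1% and 1.48%. A match describes these letters in these windows and is not a measured binding site.

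Il1a, the gene of interleukin-1 alpha, headed the well-expressed genes that rose in both clones and further in clone 2. It stood at 8.09 and 6.85 CPM in WT, 18.1 and 21.6 CPM in clone 1 and 552 and 539 CPM in clone 2. The clone 2 libraries were far above the other 4, which did not overlap between WT and clone 1 either. The log2 fold change was 6.20 ± 0.16 against WT (73.5-fold, adjusted p = 1.27e-11) and 4.78 ± 0.14 against clone 1 (27.5-fold, adjusted p = 2.26e-10). The second interleukin-1 gene, Il1b, was scarce and followed the same order, at 0.0986 and 0.236 CPM in WT, 0.617 and 0.944 CPM in clone 1 and 1.94 and 2.29 CPM in clone 2.

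Genes for neutrophil-attracting chemokines and colony-stimulating factors rose with it. Cxcl5, a ligand of the neutrophil receptor Cxcr2, belonged to the genes changed in clone 2 and not in clone 1. Its level was 29.6 and 36.3 CPM in WT, 28.3 and 30.6 CPM in clone 1 and 230.4 and 234 CPM in clone 2, so WT and clone 1 overlapped and clone 2 was 7.03-fold above WT (log2 fold change 2.81 ± 0.13, adjusted p = 3.45e-09). Cxcl1, another Cxcr2 ligand, was at 25.4 and 23.5 CPM in WT, 43.7 and 53.5 CPM in clone 1 and 318 and 268 CPM in clone 2. Its rise was 3.58 ± 0.15 against WT on the log2 scale and 6.02-fold against clone 1 (adjusted p = 9.36e-08). Csf3, which encodes G-CSF, the main driver of neutrophil production, was at 14.2 and 20.8 CPM in WT, 41.9 and 41.5 CPM in clone 1 and 351 and 311 CPM in clone 2. Clone 2 was 18.8-fold above WT and 7.94-fold above clone 1 (adjusted p = 9.36e-08), with no overlap among the groups. Cxcl3 had 2 reads in WT and 461 in clone 2, a ratio of 155 with an exact 95% counting interval of 42.8 to 1287, and it was above clone 1 by 3.30 ± 0.26. Csf2, the gene of GM-CSF, had 1 read in WT and 82 in clone 2, a ratio of 55.3 (counting interval 9.65 to 2210).

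Of the 24 tested chemokine and cytokine genes on the list, 14 were higher and 6 lower in clone 2 than in WT (25.2% and 27.9% of all tested genes), with a median log2 change of 0.92 against -0.023 over all tested genes. Against clone 1, 15 were higher and 1 lower (11.3% and 10.7% of all tested genes), with a median of 1.14 against -0.0033 over all genes. Besides Cxcl5, the members changed in clone 2 and not in clone 1 were Cxcl16, Il23a, Cx3cl1 and Il34. Cxcl16, a membrane-anchored ligand for Cxcr6 on T cells, was at 174 and 175 CPM in WT, 160.0 and 155 CPM in clone 1 and 406 and 330.1 CPM in clone 2 (log2 fold change against WT 1.08 ± 0.12, adjusted p = 8.13e-06). Il23a, the p19 subunit of interleukin-23, rose by 1.11 ± 0.14 and Cx3cl1, the fractalkine gene, by 0.98 ± 0.14. The 6 lower members included the interferon-induced chemokine gene Cxcl10 (-3.73 ± 0.51) and Ccl5, which attracts T cells (-3.82 ± 0.55). Ccl2, a monocyte chemokine gene, had 44 reads in WT and 2 in clone 2, a ratio of 32.6 (counting interval 8.51 to 278). These 3 were also lower in clone 1 and were not called between the clones.

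Several NF-kB genes differed between the clones. Of 17 tested subunits and feedback genes, 9 rose and 2 fell against WT (median log2 change 0.46), while clone 1 had 4 higher and 5 lower. Over all tested genes the shares were 25.2% and 27.9% in clone 2 and 24.5% and 26.0% in clone 1, near which the counts of clone 1 lay. Against clone 1, where 11.3% and 10.7% of all tested genes were called, 9 members were higher and 0 lower by edgeR's adjusted p (0 at an unadjusted p under 0.05, 0 by DESeq2 and 0 by limma-voom). Nfkb1, the p105 and p50 subunit, was at 113 and 120.1 CPM in WT, 130.5 and 129.5 CPM in clone 1 and 194 and 200.3 CPM in clone 2 (log2 fold change 0.76 ± 0.11, adjusted p = 5.70e-05). Tnfaip3, the A20 enzyme that shuts NF-kB signalling down, rose by 0.91 ± 0.12 and was 145 and 159 CPM in clone 2 against 75.4 and 86.8 CPM in WT. Nfkbiz, a nuclear co-regulator of NF-kB targets, rose by 0.66 ± 0.13 against WT and by 0.95 ± 0.13 against clone 1. These 3 were called in clone 2 and not in clone 1. Tnfaip3 narrowly missed a call in clone 1, at 99.2 and 99.4 CPM (log2 fold change against WT 0.29 ± 0.12, adjusted p = 0.0525). Tnip1, which binds A20, moved in opposite directions, with 0.46 ± 0.12 for clone 2 and -0.72 ± 0.12 for clone 1 against WT (adjusted p = 0.00614 and 3.11e-04). For Bcl3 the difference lay in clone 1: the levels were 3.25 and 3.48 CPM in WT, 0.176 and 0.270 CPM in clone 1 and 3.24 and 2.55 CPM in clone 2, where no change from WT was called (adjusted p = 0.432).

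The 5 genes named as above WT in clone 2 and below it in clone 1 were Lcn2, Slpi, Prss12, Ikbke and Vegfc. Lcn2, the iron-sequestering lipocalin, was at 7.10 and 10.5 CPM in WT, fell to 3.31 and 2.65 CPM in clone 1 and rose to 98.6 and 85.8 CPM in clone 2. The clone 2 level was 10.3-fold that of WT (log2 fold change 3.37 ± 0.18, adjusted p = 1.08e-08) and 30.9-fold that of clone 1, and no 2 groups overlapped. Slpi, a secreted inhibitor of leukocyte proteases, followed with 15.9 and 20.1 CPM in WT, 2.95 and 2.29 CPM in clone 1 and 73.1 and 60.0 CPM in clone 2 (log2 fold change against clone 1 4.66 ± 0.19, adjusted p = 4.61e-09). Ikbke, a kinase related to the NF-kB activators, rose by 1.78 ± 0.14 in clone 2 and fell by 0.47 on the log2 scale in clone 1. Prss12, a secreted serine protease, and Vegfc, a lymphatic growth factor, differed by 3.39 ± 0.19 and 1.80 ± 0.17 between the clones. A few genes of secreted proteins with low counts in WT and clone 1 were picked after their values were seen. Chil1, a chitinase-like secreted protein, had 3 reads in WT, 5 in clone 1 and 375 in clone 2, a ratio to WT of 84.3 (counting interval 28.6 to 411). Saa3, a serum amyloid gene, had 8, 9 and 96 reads, and Hp, the haptoglobin gene, had 0, 1 and 24, so that its level in clone 2 was at least 5.40-fold higher than in WT on a floor of 3 counts over the group. Cd14, the co-receptor for bacterial lipopolysaccharide and a marker of myeloid cells, was at 7.59 and 10.9 CPM in WT, 7.01 and 7.96 CPM in clone 1 and 22.4 and 19.5 CPM in clone 2. The summed level of the 18 immune markers was 44.9 and 55.2 CPM in WT, 13.1 and 13.3 CPM in clone 1 and 29.4 and 25.7 CPM in clone 2, and Ptprc, which marks all leukocytes, reached at most 0.118 CPM.

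**Figure D2:**
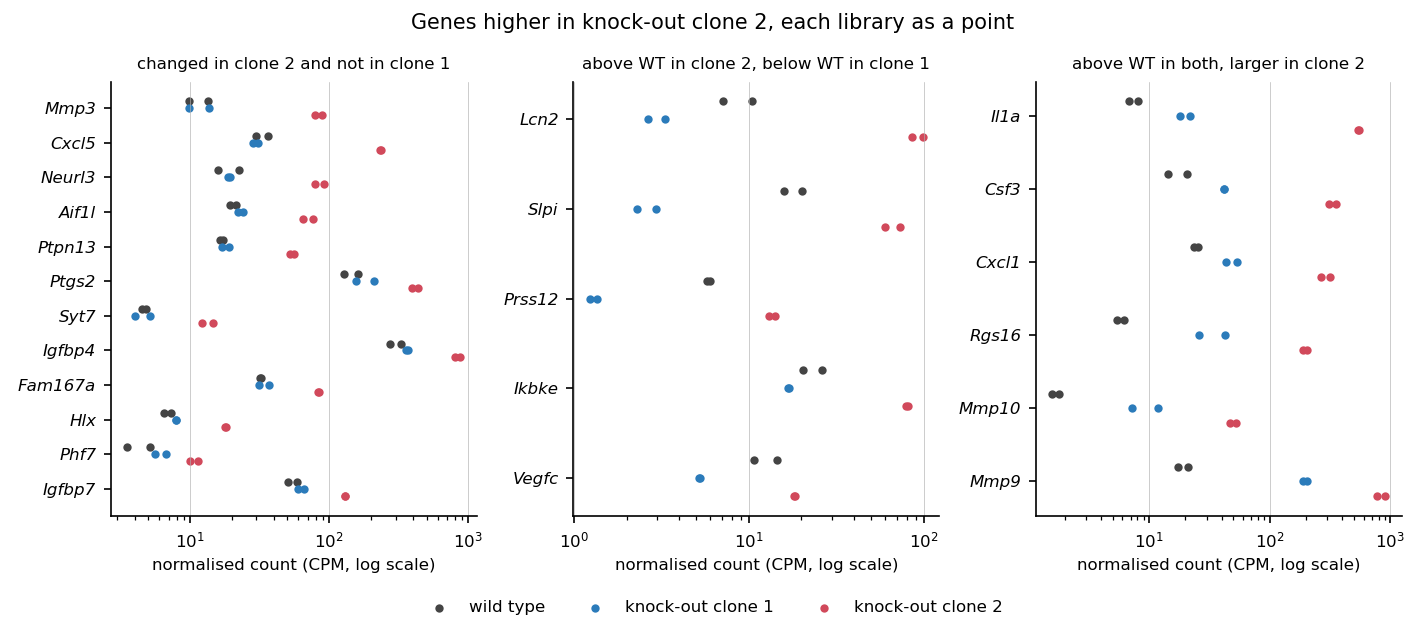
Points are single libraries (2 per group), placed by their normalised count in CPM on a log scale, for the genes with the largest rises in clone 2 that the naming rule took. In the left panel wild type and clone 1 lie together and clone 2 lies above them, in the middle panel clone 1 lies below wild type, and in the right panel clone 1 lies between wild type and clone 2, as for Il1a with clone 1 at 18.1 and 21.6 CPM.

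Matrix metalloproteinase genes that were higher than in WT were raised in clone 2 and not in clone 1, as Mmp3 was, or in both clones. Mmp3, stromelysin 1, had the largest rise among genes changed in clone 2 and not in clone 1 whose log2 CPM averaged 2 or more. Its levels were 9.86 and 13.3 CPM in WT, 9.78 and 13.6 CPM in clone 1 and 88.9 and 79.3 CPM in clone 2, a rise of 7.17-fold (log2 fold change 2.84 ± 0.18, adjusted p = 4.65e-08), while WT and clone 1 overlapped fully. The neighbouring stromelysin gene Mmp10, with the second AP-1 motif shown above, rose in both clones and stood at 1.58 and 1.77 CPM in WT, 7.23 and 11.9 CPM in clone 1 and 52.0 and 46.7 CPM in clone 2. Mmp9, gelatinase B, reached 905 and 777 CPM in clone 2 against 190.3 and 202 CPM in clone 1 and 17.4 and 21 CPM in WT, 43.6-fold above WT and 4.29-fold above clone 1 (adjusted p = 3.45e-07). The collagenase gene Mmp13 was scarce and rose by 4.28 ± 0.39, and Timp1, an inhibitor of these enzymes, rose by 1.33 ± 0.13, both by more than in clone 1. Of the 12 tested metalloproteinase and TIMP genes 6 were higher and 5 lower than in WT (25.2% and 27.9% of all tested genes), the lower ones including Mmp11 (-1.34) and Timp2 (-0.46). Against clone 1 (11.3% and 10.7% of all tested genes), 7 were higher and 0 lower by edgeR's adjusted p (1 at an unadjusted p under 0.05, 0 by DESeq2 and 0 by limma-voom). The list's median against WT was 0.57 but changed sign, to -0.31 with DESeq2's test and -0.26 without a filter on low counts, where more members with few reads entered.

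The plasminogen system activates several of these proteases. Of its 8 tested genes 6 were higher and 2 lower than in WT (25.2% and 27.9% of all tested genes), and 4 were higher than in clone 1 (11.3%). Clone 1 also had 6 higher and 2 lower than WT (24.5% and 26.0% of all tested genes). Plau, the urokinase gene, was at 78.9 and 93.9 CPM in WT, 203 and 241 CPM in clone 1 and 396 and 371 CPM in clone 2 (log2 fold change against clone 1 0.79 ± 0.13, adjusted p = 0.00110). Its receptor gene Plaur rose by 1.01 ± 0.12 against WT and 0.63 ± 0.11 against clone 1. The inhibitor gene Serpinb2 rose as well, and Serpine2 fell in both clones, to 0.412 and 0.259 CPM from 11.9 and 13.4 CPM in WT.

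Other genes raised in clone 2 and not in clone 1 had varied roles. Neurl3, an E3 ubiquitin ligase, was at 15.9 and 22.5 CPM in WT, 18.9 and 19.5 CPM in clone 1 and 91.9 and 79.6 CPM in clone 2 (log2 fold change 2.15 ± 0.16, adjusted p = 1.76e-07). Ptgs2, the inducible cyclooxygenase COX-2 that makes prostaglandins, was at 159.8 and 128 CPM in WT, 155 and 210.3 CPM in clone 1 and 434 and 394 CPM in clone 2. In clone 2 it lay above every other library (log2 fold change 1.53 ± 0.15), but its status was lost under 4 of 17 alternatives, among them the fits without WT replicate 1 and without clone 1 replicate 1. The insulin-like growth factor binding proteins Igfbp4 and Igfbp7 rose by 1.48 ± 0.12 and 1.25 ± 0.12, to 870.5 and 795 CPM and 130.4 and 130.1 CPM, and Igfbp4 lost its status without WT replicate 2. Aif1l, an actin-bundling protein, rose by 1.81 ± 0.13, and Ptpn13, a large protein tyrosine phosphatase, by 1.67 ± 0.13. Syt7, a calcium sensor of vesicle fusion, the homeobox gene Hlx and Fam167a rose by 1.49 ± 0.19, 1.37 ± 0.15 and 1.38 ± 0.12. Phf7 rose by 1.33 ± 0.21 and narrowly missed a call in clone 1, at 0.53 ± 0.21 (adjusted p = 0.0509). Phf7, with the smallest difference between the clones among these 12 (0.80 ± 0.19), lost this status under 10 of 17 alternatives, including those without WT replicate 1, clone 1 replicate 2 and each clone 2 library.

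The 12 largest falls among genes changed in clone 2 and not in clone 1 had varied roles. Cldn9, a tight junction claudin, was at 7.0 and 12.3 CPM in WT, 6.79 and 5.75 CPM in clone 1 and 1.77 and 0.950 CPM in clone 2 (log2 fold change -2.90 ± 0.32, adjusted p = 1.38e-05). Espn, which bundles actin in microvilli, fell from 7.5 and 11.4 CPM in WT and 8.11 and 7.10 CPM in clone 1 to 1.83 and 1.77 CPM. Itga1, the integrin subunit that binds collagen, fell by 1.62 on the log2 scale to 2.89 and 2.12 CPM. For each of these the clone 2 libraries lay below the other 4. The kinase gene Tnik, which acts with Wnt signalling, was at 6.71 and 8.21 CPM in WT, 7.67 and 7.55 CPM in clone 1 and 1.71 and 2.07 CPM in clone 2 (log2 fold change -1.98 ± 0.21, adjusted p = 4.90e-06). Arfgef3 changed by -1.96 ± 0.16, the actin-associated adaptor Afap1l2 by -1.67 ± 0.15, the zinc finger gene Zswim5 by -2.06 ± 0.26, the growth-promoting transcription factor Plag1 by -1.62 ± 0.16 and Fam169a by -1.61 ± 0.21. The zinc finger genes Zfp189 and Zfp950 changed by -1.59 ± 0.23 and -1.55 ± 0.25 and the chromatin-associated Ankrd12 by -1.46 ± 0.15. Zfp189, Zfp950 and Cldn9 also leaned down in clone 1, by -0.53 ± 0.21, -0.49 ± 0.23 and -0.65 ± 0.27 against WT. These changes in clone 1 narrowly missed a call (adjusted p = 0.0512, 0.0886 and 0.0594). Zfp189 lost its status under 7 of 17 alternatives, Cldn9 under 4 and Zfp950 under 3. Without WT replicate 1 it was lost by Cldn9 and Espn, without WT replicate 2 or clone 2 replicate 1 by Zfp189 and Zfp950, and without clone 2 replicate 2 by Itga1.

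**Figure D3:**
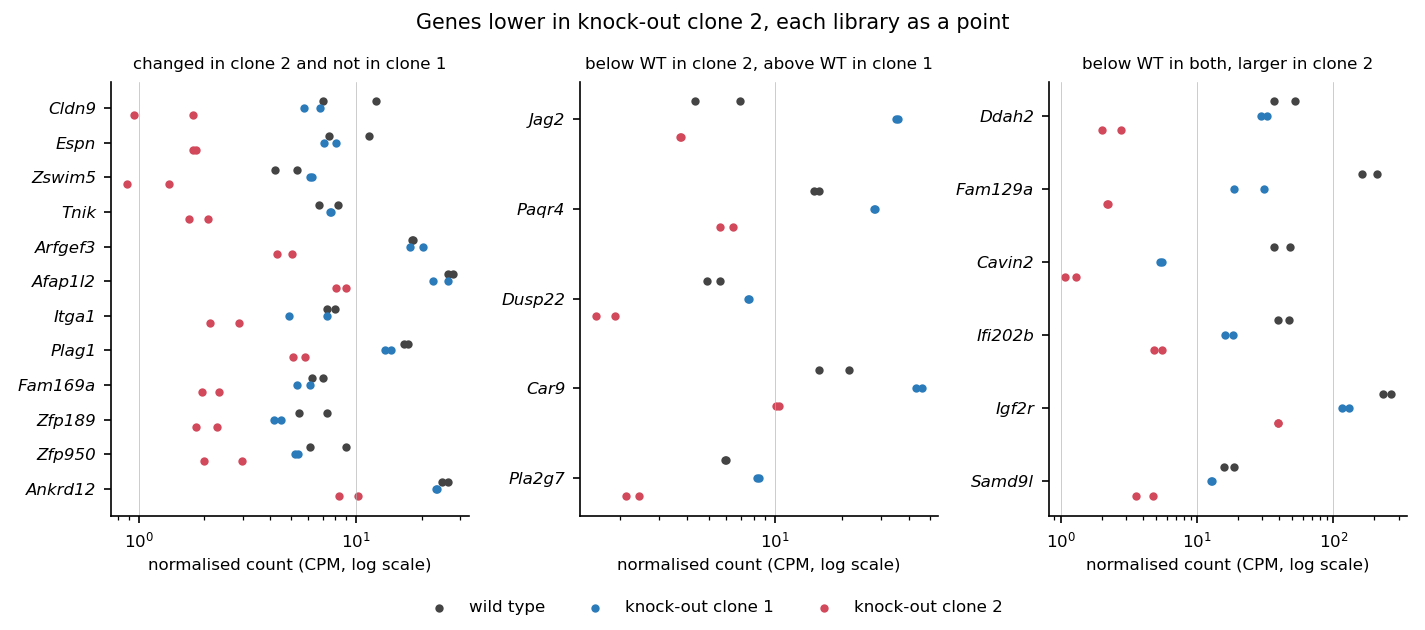
Points are single libraries (2 per group), placed by their normalised count in CPM on a log scale, for the genes with the largest falls in clone 2 that the naming rule took. In the left panel clone 2 lies below both other groups, in the middle panel clone 1 lies above wild type, as for Jag2 with 35.1 and 35.7 CPM in clone 1, and in the right panel clone 1 lies between wild type and clone 2.

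Of the 5 genes named as below WT in clone 2 and above it in clone 1, Jag2, which encodes a Notch ligand, had the widest gap. Its levels were 4.34 and 6.97 CPM in WT, 35.1 and 35.7 CPM in clone 1 and 3.77 and 3.71 CPM in clone 2. Most of the gap lay in clone 1, since the change of clone 2 from WT was -0.63 ± 0.21 (adjusted p = 0.0194). Both clone 2 libraries lay just under the lower WT library. Car9, the hypoxia-induced carbonic anhydrase, was at 15.8 and 21.6 CPM in WT, 45.8 and 43.0 CPM in clone 1 and 10.1 and 10.4 CPM in clone 2, with -2.12 ± 0.16 between the clones. Paqr4, Dusp22 and Pla2g7 showed the same arrangement at -2.21, -2.15 and -1.87 between the clones. Among genes that fell in both clones but further in clone 2, Ddah2, which degrades inhibitors of nitric oxide synthase, went from 36.4 and 52.2 CPM in WT and 32.8 and 29.5 CPM in clone 1 to 2.77 and 2.03 CPM in clone 2. Igf2r, the receptor that clears insulin-like growth factor 2 and sorts lysosomal enzymes, went from 232 and 263 CPM in WT and 130.3 and 116 CPM in clone 1 to 39.2 and 39.5 CPM. Cavin2, a coat protein of caveolae, changed by -5.17 ± 0.21 against WT and Fam129a by -6.38 ± 0.29. The interferon-inducible Ifi202b and Samd9l changed by -3.04 ± 0.16 and -2.03 ± 0.18, and Ifi202b has close relatives that could share reads.

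Some growth factor and Notch genes were changed in clone 2 and not in clone 1. Egfr, the receptor of the EGF family ligands, was low in all cells and nearly lost in clone 2, at 4.04 and 2.36 CPM in WT, 1.41 and 2.34 CPM in clone 1 and 0.118 and 0.216 CPM in clone 2 (2 and 5 reads). The difference was -4.10 ± 0.50 from WT (adjusted p = 1.54e-05) and -3.38 ± 0.51 from clone 1 (adjusted p = 7.40e-04). Nrg1, a ligand of Erbb3, went the other way, with 7.79 and 7.68 CPM in WT, 6.61 and 7.01 CPM in clone 1 and 16.5 and 16.4 CPM in clone 2, and Erbb3 fell by 0.61 on the log2 scale (adjusted p = 6.38e-04). Erbb3 leaned down in clone 1 as well (-0.27 ± 0.12, adjusted p = 0.0676) and only just passed between the clones (adjusted p = 0.0495). The ligand genes Hbegf and Tgfa rose by 2.11 ± 0.12 and 1.84 ± 0.11 against WT, more than in clone 1, whereas Areg rose by 3.34 ± 0.16 and was not called between the clones. Of the 11 tested EGF family and ErbB genes, 4 were higher and 3 lower than in WT, against 25.2% and 27.9% of all tested genes, so these counts lay near the background. Among 19 tested Notch genes, 10 were higher and 5 lower than in WT, and clone 1 had 11 higher and 2 lower. The list's median log2 change from WT was 0.66 in clone 2 and 0.72 in clone 1, so the rise was shared. Against clone 1, 2 were higher and 5 lower. Notch1, with 55.5 and 86.6 CPM in WT and 36.6 and 38.7 CPM in clone 2, fell in clone 2 and not in clone 1. So did the scarce Notch3, at 0.592 and 1.54 CPM in WT and 0.471 and 0.259 CPM in clone 2. Its difference between the clones only just passed (adjusted p = 0.0490). Cdh1, the E-cadherin gene of epithelial junctions, was 285 and 325 CPM in clone 2 against 388 and 387 CPM in WT and 448 and 454 CPM in clone 1 (log2 fold change -0.35 ± 0.11, adjusted p = 0.0180), and the desmosomal Dsg2 changed by -0.36 ± 0.13. Of 29 tested junction genes 11 were higher and 9 lower than in WT, with 1 higher and 7 lower than in clone 1, where 11.3% and 10.7% of all tested genes were called. Ehf, an epithelial transcription factor, had 2 reads in WT, 3 in clone 1 and 86 in clone 2, a ratio to WT of 29.0 (counting interval 7.79 to 243).

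Part of the genes of glycolysis and of the respiratory chain were higher in clone 2 than in clone 1. Over all tested genes, 11.3% were higher and 10.7% lower than in clone 1, and 25.2% and 27.9% than in WT. Of 35 tested glycolysis and hypoxia genes, 15 were higher and 2 lower than in clone 1 (median log2 change 0.31), whereas against WT 12 were higher and 12 lower (median 0.056, which changed sign under upper-quartile scaling, at -0.033, without WT replicate 1, at -0.080, and without clone 2 replicate 1, at -0.043). Aldoa, a glycolytic aldolase, was at 754 and 788 CPM in WT, 630.0 and 701 CPM in clone 1 and 1153 and 982 CPM in clone 2 (log2 fold change 0.47 ± 0.12, adjusted p = 0.00470). Ldha, lactate dehydrogenase A, rose by 0.61 ± 0.13, and Pdk1, a kinase that inhibits pyruvate dehydrogenase, by 0.44 ± 0.13. Among 76 tested nuclear genes of the respiratory chain, 18 were higher and 2 lower than in clone 1 and 8 higher and 16 lower than in WT, where clone 1 had 3 higher and 31 lower. Cyc1 and Uqcrc1, subunits of complex III, rose against WT by 0.49 ± 0.12 and 0.70 ± 0.12. Of 77 tested mitochondrial ribosomal protein genes, 10 rose in clone 2 and not in clone 1 and 1 fell, against 3.30% and 3.24% of all tested genes, with Mrpl57 at 33.9 and 35.3 CPM in WT and 63.1 and 53.1 CPM in clone 2 as an example. In the cholesterol and fatty acid list 22 of 34 tested genes rose and 4 fell against WT (median log2 change 0.54). Clone 1 had 17 higher and 4 lower than WT (median 0.37), so much of the rise was shared. The sterol synthesis genes Lss, Pmvk and Mvd were among 6 of the list that rose in clone 2 and not in clone 1, and 1 fell. Calr, Manf and Hyou1, chaperones of the endoplasmic reticulum, rose in clone 2 and not in clone 1, by 0.53 ± 0.12, 0.59 ± 0.13 and 0.54 ± 0.12, and 11 of 21 tested genes of the unfolded protein response were higher and 1 lower than in clone 1.

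Genes of mitosis were changed in both directions. Of 61 tested G2 and mitosis genes 11 were higher and 24 lower than in WT (median log2 change -0.096), where 25.2% and 27.9% of all tested genes were called. In clone 2 and not in clone 1, 3 rose and 7 fell, against 3.30% and 3.24% of all tested genes. Smc2, a condensin core subunit, was at 142 and 119 CPM in WT, 92.4 and 115 CPM in clone 1 and 55.7 and 72.8 CPM in clone 2 (log2 fold change -1.02 ± 0.15, adjusted p = 9.49e-05). Its partner Smc4 changed by -0.58 ± 0.13, the kinetochore gene Ndc80 by -0.84 ± 0.15 and the spindle gene Nusap1 by -0.73 ± 0.14. Plk1, the mitotic Polo-like kinase, rose instead, from 58.3 and 57.8 CPM in WT to 117 and 90.4 CPM in clone 2 (0.84 ± 0.14). Among 17 tested genes of Ki-67 and its partners on mitotic chromosomes, some also on the mitosis list, 2 were higher and 8 lower than in WT. Npm1, the nucleolar protein nucleophosmin, was at 431 and 343 CPM in WT, 354 and 448 CPM in clone 1 and 216 and 268 CPM in clone 2, and it and Smc2, Smc4 and Ppp1cb, a catalytic subunit of protein phosphatase 1, fell in clone 2 and not in clone 1. In each of these 4 genes clone 2 replicate 1 was the lower of the pair, and in Plk1 it was the higher. Of 54 tested S phase genes 19 rose and 6 fell against WT, with Rrm2, a ribonucleotide reductase subunit, raised in clone 2 and not in clone 1 (0.73 ± 0.12). Clustered histone genes, whose near-identical copies could share reads, were higher for 37 and lower for 3 of 57 tested, and their summed level was 7519 and 7552 CPM in WT, 10365 and 10582 CPM in clone 1 and 15398 and 10519.9 CPM in clone 2. Clone 2 replicate 1 lay above both clone 1 libraries and replicate 2 between them.

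**Figure D4:**
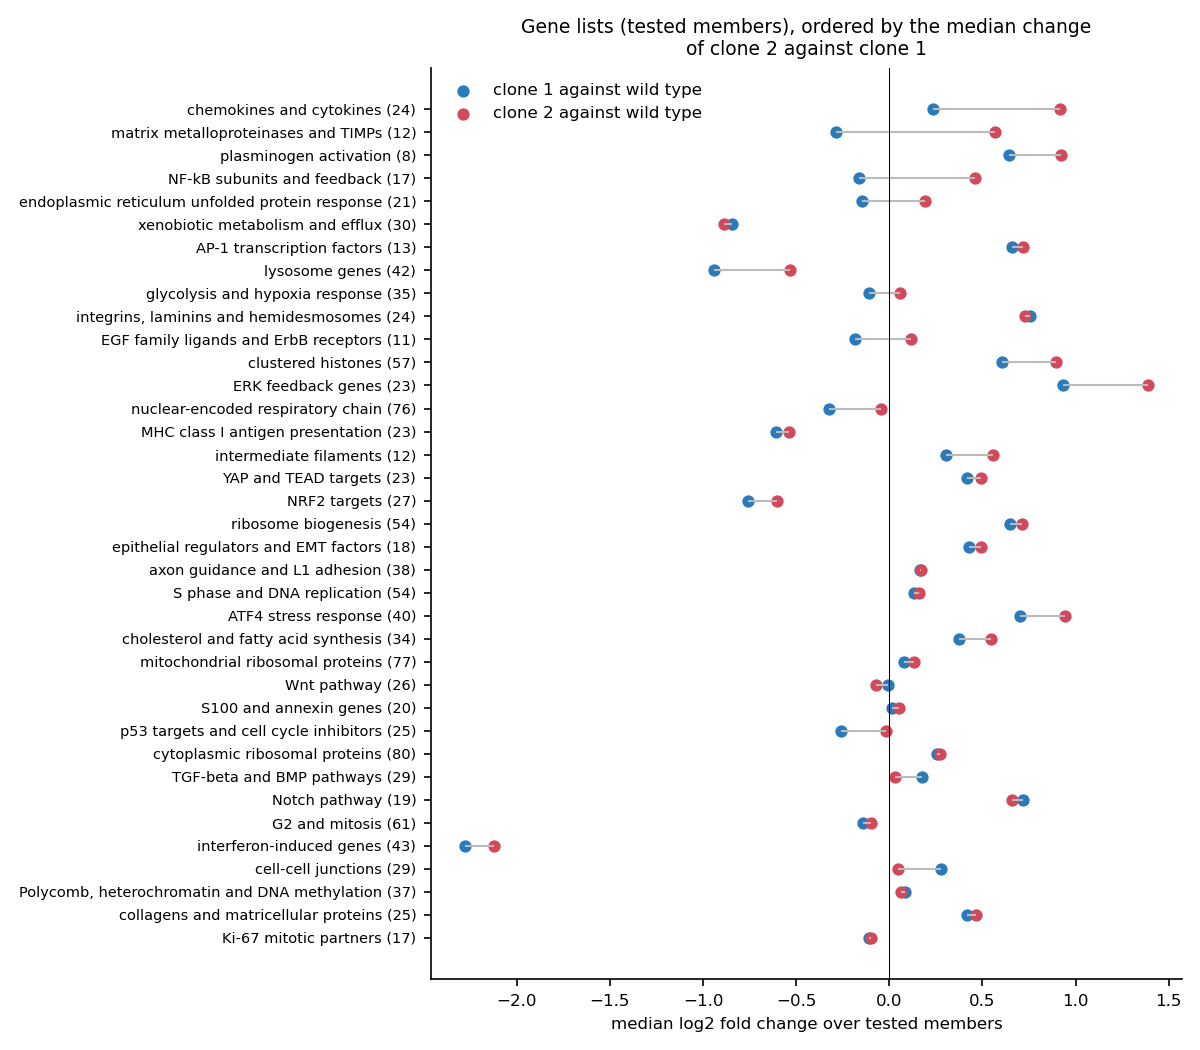
For each list drawn, with its number of tested members in brackets, points give the median log2 fold change over those members in clone 1 (blue) and clone 2 (red) against the same wild-type libraries, and lists are ordered by the median of clone 2 against clone 1. The cell type marker lists and the mitochondrially encoded genes are not drawn. The latter had medians of 0.23 in clone 1 and -0.63 in clone 2, with summed levels of 9598 and 2850 CPM in the wild-type libraries. Chemokines and cytokines head the order, with medians of 0.24 in clone 1 and 0.92 in clone 2, and interferon-induced genes lie near -2.28 and -2.12.

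Several of the largest changes from WT were shared with clone 1. Ap1m2, a subunit of the epithelial clathrin adaptor AP-1B, rose from 0.395 and 0.0590 CPM in WT to 56.5 and 51.4 CPM in clone 2 and 47.9 and 48.4 CPM in clone 1. Hexa, a lysosomal hexosaminidase, had 2138 reads in WT and none in either clone, so its level in clone 2 was at least 1057-fold lower on a floor of 3 counts over the group. Mal2, a protein of polarised transport, and Vldlr, a lipoprotein receptor, each had 1 read in clone 2 against 1738 and 992 in WT, ratios of 2577 (counting interval 462 to 101852) and 1471 (263 to 58159). Gpnmb and Lcp1, the L-plastin gene, changed by -8.20 ± 0.20 and -7.59 ± 0.19, and Lcp1 was less reduced in clone 2 than in clone 1 by 1.55 ± 0.30 (adjusted p = 0.00368). Of 43 tested interferon-induced genes, 41 were lower than in WT (27.9% of all tested genes) and 0 higher by edgeR's adjusted p (0 at an unadjusted p under 0.05, 0 by DESeq2 and 0 by limma-voom), with a median log2 change of -2.12. In clone 1, 39 of the 43 were lower than in WT (26.0% of all tested genes). Against clone 1, 2 were higher and 3 lower, where 11.3% and 10.7% of all tested genes were called. Their only member changed in clone 2 and not in clone 1 was Eif2ak2, the double-stranded RNA kinase PKR, at 31.8 and 29.6 CPM in WT, 26.8 and 29.1 CPM in clone 1 and 17.9 and 17.8 CPM in clone 2. Genes of ERK feedback were higher for 20 of 23 tested (median 1.39, and 25.2% of all tested genes) and lower for 0 by edgeR's adjusted p (0 at an unadjusted p under 0.05, 0 by DESeq2 and 0 by limma-voom). In clone 1, 18 of the 23 were higher than in WT (24.5% of all tested genes). Against clone 1, 6 were higher in clone 2 (11.3% of all tested genes), such as Ier3 (0.66 ± 0.11) and Dusp5 (0.81 ± 0.13).

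The genes changed in clone 2 and not in clone 1 were spread unevenly over chromosomes, and whole chromosomes were shifted between the clones. On chromosome 14, 58 of 452 tested genes rose in clone 2 and not in clone 1 (12.8%, against 3.30% of all genes) and 1 fell. The median log2 change of its genes was 0.33 against clone 1, made of 0.084 in clone 2 and -0.25 in clone 1 against WT. On chromosome 4, 88 of 835 tested genes fell in clone 2 and not in clone 1 (10.5%, against 3.24% of all genes) and 5 rose, with medians of -0.23 against clone 1, -0.15 in clone 2 and 0.16 in clone 1 against WT. Chromosome 17 held 50 of the lower genes (7.63% of 655 tested) and 2 of the higher, with medians of -0.35 against clone 1, 0.17 in clone 2 and 0.55 in clone 1 against WT. Chromosome 19 held 30 of the lower genes (6.76% of 444 tested). Both clone 2 libraries showed these shifts, with medians against clone 1 of 0.28 and 0.32 on chromosome 14, -0.22 and -0.23 on chromosome 4 and -0.31 and -0.36 on chromosome 17. The median against clone 1 had the same sign in every 20 Mb window with at least 20 tested genes on these 3 chromosomes, whereas on chromosome 19 it was -0.37 between 20 and 40 Mb and 0.023 before that. When the median of each chromosome was removed, 397 higher and 370 lower genes remained changed in clone 2 and not in clone 1, of which 246 and 236 were among the original ones. Of the genes named above, Fam167a and Phf7 on chromosome 14, Plag1 and Zfp189 on chromosome 4, Cldn9 and Ankrd12 on chromosome 17, and Ptgs2, Igfbp4, Igfbp7 and Arfgef3 on others lost their status in that fit, while Mmp3, Cxcl5, Neurl3, Tnik and, on chromosome 4, Espn and Zswim5 kept it. The part of gene copy number in these shifts was not tested.

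**Figure D5:**
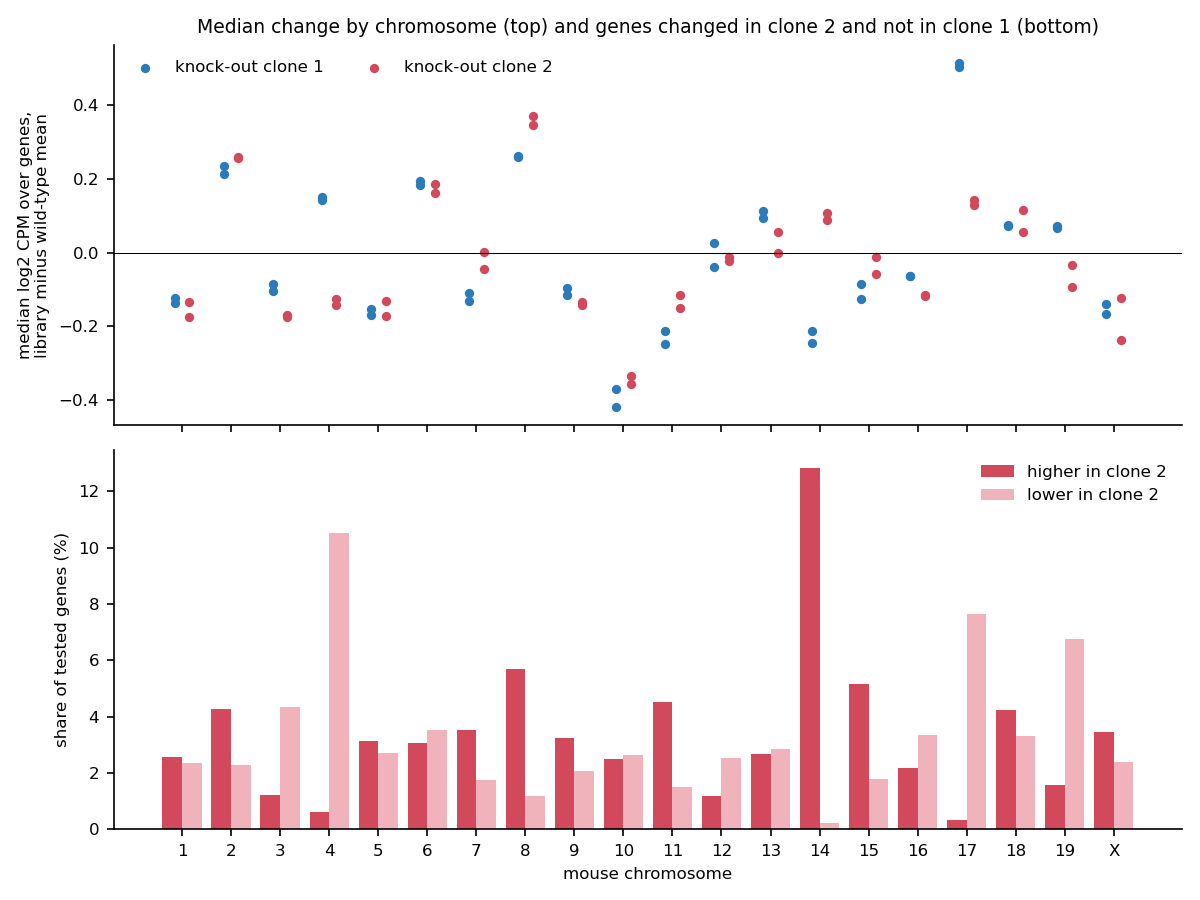
The upper panel gives, for each mouse chromosome, the median over tested genes of log2 CPM in 1 library minus the wild-type mean, with 2 points per clone. The lower panel gives the share of tested genes of the chromosome that were changed in clone 2 and not in clone 1, higher or lower, and shows the peak of 12.8% on chromosome 14 and of 10.5% on chromosome 4.

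Transcript length and one gene family also went with the falls of clone 2, both noticed after the values were seen. Genes were put into 5 equal classes by summed exon length. In the shortest class, of 57 to 1997 bases, 1.02% fell in clone 2 and not in clone 1, against 5.82% in the longest, of 7138 bases and more, whereas 3.23% and 2.69% rose. The median log2 change against clone 1 was 0.030 in the shortest and -0.090 in the longest class, where it was -0.13 in clone 2 replicate 1 and -0.047 in replicate 2. The part of RNA quality in these falls was not tested. Of 310 tested genes named Zfp, which encode zinc finger proteins, 41 fell in clone 2 and not in clone 1 (13.2%, against 3.24% of all genes) and 3 rose. Their median log2 change was -0.37 against WT and -0.26 against clone 1, and their median exon length was 4781 bases against 4012 over all genes.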

How the data were processed

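Gene counts deposited by the authors were used as given, 1 table per library with reads assigned per gene, and per the submitters' processing notes the reads were mapped with STAR 2.6.0c to GRCm38 after FastQC. The reverse-strand counts were taken, and summary entries that name no gene (unassigned reads) were left out. Reads without a gene on that strand were 9.21% to 13.5% of each library. Gene symbols came from GENCODE mouse 21 for 54079 of 54146 identifiers, and promoters from RefSeq on GRCm38.p6. Genes passing filterByExpr were fitted over all 6 libraries with TMM scaling in edgeR 4.0.16 (quasi-likelihood test, R 4.3.3), leaving 3 residual degrees of freedom and a common biological coefficient of variation of 10.3%. Ratios with few reads carry exact 95% binomial intervals that cover counting error only, with a floor of 3 counts where a group had no read.

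The rule for named genes took Mki67, the 12 largest rises and 12 largest falls among genes changed in clone 2 and not in clone 1 (average log2 CPM of at least 2), up to 5 genes per direction with opposite changes in the clones, up to 6 per direction with the larger change in clone 2 (average log2 CPM of at least 3), the 6 largest rises and falls over all called genes, and up to 4 members of each of 43 gene lists. Other genes were named after their values were seen. The members and lists were chosen with earlier results of these data known. Replicate numbers were checked for pairing: differences between replicates 1 and 2 correlated at -0.156, 0.082 and 0.0047 between groups. The main fit assumed no pairing. Such correlations cannot show whether same-numbered libraries were prepared together, which the labels do not say. Alternatives were DESeq2 1.42.0, limma 3.58.1 (voom), other scalings and filters, a 1.5-fold threshold, unstranded counts, a replicate block, removal of chromosome medians, a fit to the compared groups only and leaving out each library. The older quasi-likelihood fit was added after the data were seen. The fits were tested on simulated data.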

Additional observations from a re-analysis of the deposited data

Results flagged for a closer look

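Calls from WT went in opposite directions in the clones, with a call between the clones, for 38 genes above WT in clone 2 and 31 below it. The naming rule took 10 of these, and for each the direct comparison of clone 2 with clone 1 passed edgeR's adjusted p. Their log2 differences, clone 2 against clone 1, were 4.95 for Lcn2, 4.66 for Slpi, 3.39 for Prss12, 2.25 for Ikbke and 1.80 for Vegfc, all above WT in clone 2 and below it in clone 1. The reverse arrangement was found for Jag2 at -3.24, Paqr4 at -2.21, Dusp22 at -2.15, Car9 at -2.12 and Pla2g7 at -1.87. The genes were taken by the naming rule for their gap between the clones, so these values describe the choice.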

How the results depend on the processing

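Counts of genes moved by more than 1.5 times under one threshold and when single libraries were left out. Requiring a change beyond 1.5-fold gave 1250 higher and 1782 lower genes in clone 2 against WT, 182 and 162 against clone 1, and 55 and 58 changed in clone 2 and not in clone 1. Leaving out 1 library gave 2725 to 3502 higher and 2907 to 3700 lower genes against WT, 341 to 2365 higher and 284 to 2080 lower against clone 1, and 93 to 705 higher and 71 to 601 lower genes changed in clone 2 and not in clone 1. The lowest counts were those without clone 2 replicate 1, which leaves that clone with 1 library, assumed to vary like the other groups. The other alternatives stayed within 1.5 times, except where named here. The fit to the compared groups alone could not be given for genes changed in clone 2 and not in clone 1, which need all 3 groups. Of 5246 alternative values for 292 results on named genes, 4754 kept their side of the threshold, 489 fell short of it and 3 newly passed it. Where the main or the alternative fit made a call, 0 turned direction. Changes of direction without a call in either fit were not counted. The medians of 12 of 43 gene lists changed sign under some alternative.

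With the replicate block, 393 higher and 419 lower genes were changed in clone 2 and not in clone 1, 3316 and 3712 differed from WT, and 1278 and 1288 differed from clone 1. Whether the replicate numbers pair the libraries is not known from the labels.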

Other observations

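Lysosome and xenobiotic metabolism genes were more often lower than higher against WT. Over all tested genes, 25.2% were higher and 27.9% lower than in WT, and 11.3% and 10.7% than in clone 1. Of 42 tested lysosome genes 5 were higher and 26 lower than in WT (median log2 change -0.53), while 12 were higher and 4 lower than in clone 1 (median 0.32). Ctsz, a lysosomal cathepsin, stood at 184 and 206 CPM in WT, 218 and 222 CPM in clone 1 and 333 and 324 CPM in clone 2. Ctsz and Ctsl rose in clone 2 and not in clone 1, whereas Asah1 and Ppt1 fell, by log2 changes of -0.56 ± 0.11 and -0.72 ± 0.14. Of 30 tested genes of xenobiotic metabolism and efflux 7 were higher and 18 lower than in WT, and 11 were higher and 2 lower than in clone 1. Abcc4, an efflux pump, was at 33.2 and 33.9 CPM in WT, 33.4 and 31.6 CPM in clone 1 and 63.7 and 64.3 CPM in clone 2.

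Against the same shares over all genes, of 24 tested integrin, laminin and hemidesmosome genes 14 were higher and 5 lower than in WT, and 10 were higher and 2 lower than in clone 1. Clone 1 had 15 higher and 5 lower than WT, where 24.5% and 26.0% of all tested genes were called. The list's median log2 change from WT was 0.73 in clone 2 and 0.76 in clone 1, so the rise was shared. Lama3 and Lamb3, chains of laminin-332, were at 409 and 430.0 CPM and 557 and 569 CPM in clone 2 against 34.9 and 34.4 CPM and 120.1 and 155 CPM in WT. Ribosome biogenesis genes were higher than in WT for 40 of 54 tested and lower for 2 (median 0.71), with 12 higher and 4 lower than in clone 1. In clone 1, 36 of these were higher and 1 lower than in WT (median 0.65).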
